A study of Rattus norvegicus with 18 samples.

Results

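The genes described here make cholesterol and fatty acids. They number 34, with 18 of the sterol branch, 11 of the fatty acid branch and 5 regulators, and they were chosen by name. A gene was read through array probe sets that the platform annotation assigns to that gene symbol alone, and the probe set with the highest mean over 18 arrays stood for the gene. Of the 34 genes, 33 had such a probe set, and Hmgcs1, the cytosolic HMG-CoA synthase, was not analysed here. All 33 passed the filter on low values, which kept 9015 of 14217 genes with a log2 value of 4 or more on at least 3 arrays.

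The cells were NRK-52E, a rat kidney line that the labels assign to the Osborne-Mendel strain and to the renal proximal tubule, grown in medium with 10% fetal calf serum. Aristolochic acid (AA), a plant nitrophenanthrene that forms DNA adducts and injures the kidney tubule, was given at 1.65 µM in 0.1% DMSO to confluent cells, for 6, 24 or 72 h. Per the labels this was the IC10 of a 72 h exposure, the level at which the cells are inhibited by 10%. Controls received 0.1% DMSO alone for the same times, so every group carried the solvent, and each of the 6 groups had 3 arrays that the labels call biological replicates. All groups are a single cell line at a single dose. Whether the medium was renewed during the exposure is not given in the sources used here.

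Cholesterol is built from acetyl-CoA through mevalonate, isoprenoid diphosphates, squalene and lanosterol, and fatty acids are built from the same acetyl-CoA through malonyl-CoA. Transcription of both branches is driven by the sterol regulatory element binding proteins (SREBPs). Srebf2 encodes the form that favours sterol genes and Srebf1 the forms that favour fatty acid genes. When membrane sterol is ample, INSIG proteins hold the SREBPs in the endoplasmic reticulum, so the pathway's RNAs are commonly low in sterol-replete cells and high in sterol-depleted cells. SREBPs act on promoters together with NF-Y, which binds CCAAT boxes, and Sp1, which binds GC boxes.

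The promoters of 5 genes that fell from 24 h to 72 h in the solvent controls, and that of Mid1ip1, which did not, are given here from RefSeq (assembly GRCr8). Each runs 5′ to 3′ on the gene's strand, from 250 bases before to 50 bases after the annotated start, and capitals mark CCAAT boxes on either strand (ATTGG is the box on the opposite strand). Tm7sf2 lies at chr1:212789492-212789791, Mvd at chr19:67414925-67415224, Hsd17b7 at chr13:84722705-84723004, Idi1 at chr17:66547475-66547774, Insig1 at chr4:8057720-8058019 and Mid1ip1 at chrX:14735671-14735970, all on the minus strand.
Tm7sf2: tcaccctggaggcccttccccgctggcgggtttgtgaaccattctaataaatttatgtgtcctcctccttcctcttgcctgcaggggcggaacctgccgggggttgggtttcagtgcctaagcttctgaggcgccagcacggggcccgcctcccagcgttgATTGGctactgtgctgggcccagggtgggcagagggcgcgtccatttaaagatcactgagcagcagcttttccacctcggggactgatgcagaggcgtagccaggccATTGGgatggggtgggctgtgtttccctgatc
Mvd: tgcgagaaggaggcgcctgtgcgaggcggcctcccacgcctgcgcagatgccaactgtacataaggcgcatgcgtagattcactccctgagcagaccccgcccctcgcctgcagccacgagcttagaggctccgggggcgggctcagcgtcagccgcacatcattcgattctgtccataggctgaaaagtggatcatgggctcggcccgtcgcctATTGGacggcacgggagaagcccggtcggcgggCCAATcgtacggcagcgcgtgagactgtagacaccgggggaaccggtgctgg
Hsd17b7: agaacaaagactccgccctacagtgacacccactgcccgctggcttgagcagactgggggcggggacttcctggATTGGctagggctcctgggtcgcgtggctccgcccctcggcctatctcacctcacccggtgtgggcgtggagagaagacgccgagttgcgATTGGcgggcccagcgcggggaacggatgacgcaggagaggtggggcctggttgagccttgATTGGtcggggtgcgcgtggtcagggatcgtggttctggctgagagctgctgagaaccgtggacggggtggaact
Idi1: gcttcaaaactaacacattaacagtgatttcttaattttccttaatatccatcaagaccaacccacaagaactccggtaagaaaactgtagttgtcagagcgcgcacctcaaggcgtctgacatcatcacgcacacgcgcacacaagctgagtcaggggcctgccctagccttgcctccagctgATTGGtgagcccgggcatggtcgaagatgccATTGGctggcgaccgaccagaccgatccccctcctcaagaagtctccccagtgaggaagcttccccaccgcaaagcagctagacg
Insig1: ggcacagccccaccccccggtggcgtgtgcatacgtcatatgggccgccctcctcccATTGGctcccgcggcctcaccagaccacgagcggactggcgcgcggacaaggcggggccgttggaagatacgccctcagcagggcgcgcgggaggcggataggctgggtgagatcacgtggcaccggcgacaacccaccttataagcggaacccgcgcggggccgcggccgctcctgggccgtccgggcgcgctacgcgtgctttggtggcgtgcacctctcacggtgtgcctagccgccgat
Mid1ip1: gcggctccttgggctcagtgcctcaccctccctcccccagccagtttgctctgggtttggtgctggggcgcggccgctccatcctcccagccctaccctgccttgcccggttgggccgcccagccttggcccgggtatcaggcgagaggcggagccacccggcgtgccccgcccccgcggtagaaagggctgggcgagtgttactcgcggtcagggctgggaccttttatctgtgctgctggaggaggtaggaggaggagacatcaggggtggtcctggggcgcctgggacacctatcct
Promoter windows of the same length, 28 in all, matched 27 of the 34 genes. CCAAT, searched on both strands, was in 23 of these 28 windows (82.1%), against 37.5% of all 33469 RefSeq windows and 38.1% of 8499 windows of tested genes. Hsd17b7 held 3 boxes, Tm7sf2, Mvd and Idi1 held 2 each, Insig1 held 1 and Mid1ip1 held none. The other windows without it were those of Acat2, Dhcr7, Cyp51 and Fads2, which all fell in the controls from 24 h to 72 h. The window of Elovl5 held 2, and that gene did not pass there but fell with its second probe set (-1.64). Whether the box goes with the direction of the RNA was not tested. GGGCGG, the GC box bound by Sp1, was in 82.1% of the members' windows, 33.1% of all windows and 64.2% of windows of tested genes. TCACNCCAC, a strict core of the sterol regulatory element, was in 0 of 28 windows and in 1.12% of all windows. ATTGG and GGGCGG can share G bases, and such overlaps counted for both, each a match of letters and not a known site.

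The values are deposited log2 expression values, array medians lay between 4.01 and 4.19, and arrays of a group correlated at 0.996 to 0.999 over all probe sets other than controls. The third AA array at 6 h stood apart on the fourth principal component (4.89% of the variance), at -26.5 against -6.63 and -8.92 for the other arrays of its group. It also had the highest value of its group for 31 of the 33 lipid genes, so calls at 6 h that were lost without it are marked. How often it was highest over all tested genes was not counted. Of 10 proximal tubule markers only Aqp1 and Ggt1 passed the filter, and Lrp2, Cubn, Slc34a1, Slc5a2, Slc22a6, Slc22a8, Anpep and Cdh16 stayed near the array floor. Of 5 epithelial markers only the keratin Krt8 passed the filter, while 4 of 6 fibroblast markers did (Col1a1, Col1a2, Col3a1 and Acta2), and of 3 immune markers only Cd68. The cells are therefore called by the line's name and not as tubule epithelium. In RNA from a whole well, fewer cells expressing a gene and less RNA per cell cannot be told apart.

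The pathway fell with time in the solvent controls, mostly after 24 h. Between 24 h and 72 h in DMSO, all 33 measured genes had a lower mean, and 27 of 33 fell past the test (limma, adjusted p under 0.05 by Benjamini-Hochberg over all tested genes), while 17.1% of all tested genes did so. None of the 33 rose, by the adjusted test or at an unadjusted p under 0.05, where the adjusted test called 17.2% of all genes higher. The sterol branch led with 16 of 17 genes, followed by 9 of 11 fatty acid genes and 2 of 5 regulators. The median log2 difference was -1.83 in the sterol branch, -0.88 in the fatty acid branch and -0.32 among regulators, while all tested genes were about evenly divided between higher and lower. Among 9015 genes ordered by this difference, 15 of the 33 were within the lowest 100. The arrays of the groups did not overlap for 31 of 33 genes, against 25.9% of all genes with every 72 h array below every 24 h array.

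**Figure D1:**
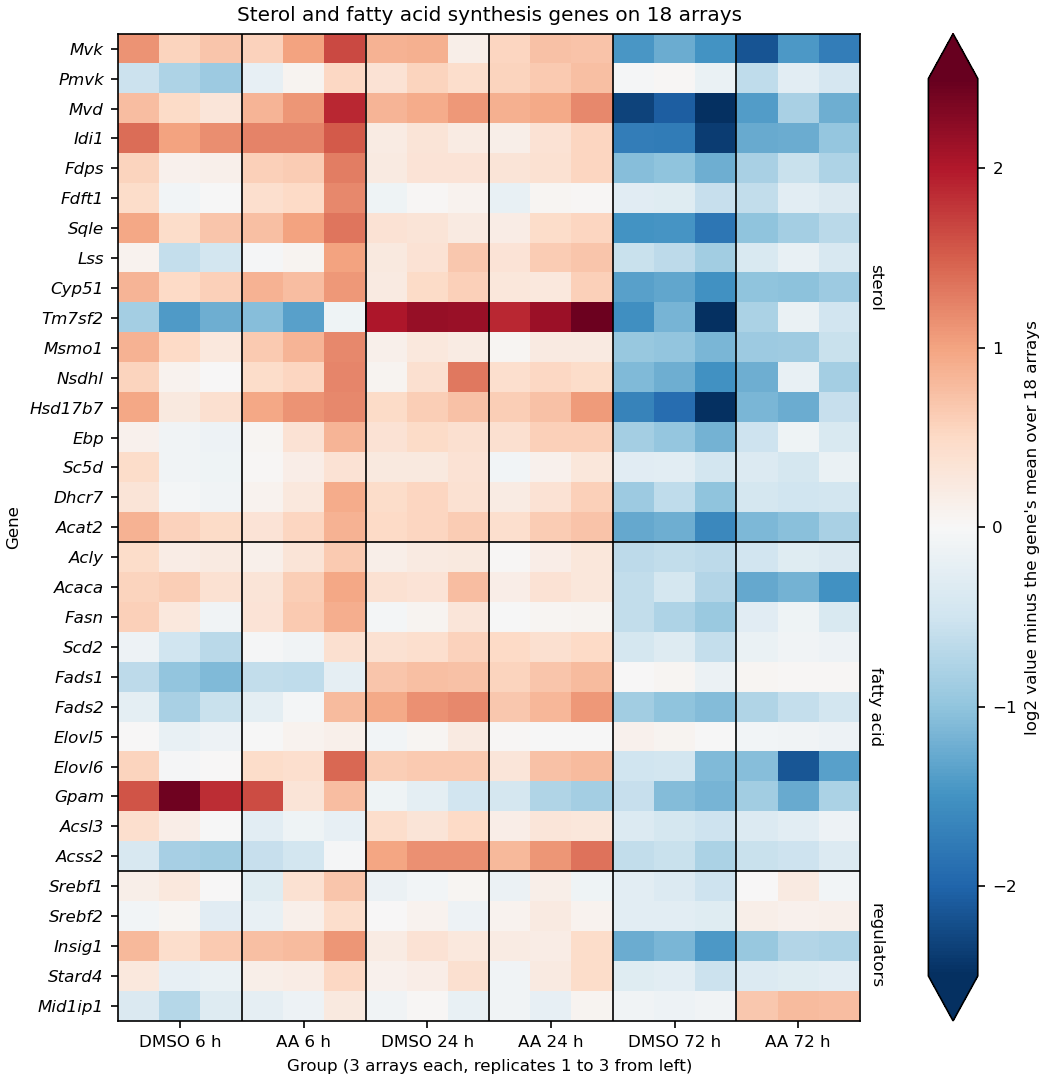
Heat map of the 33 measured genes (rows, grouped as sterol, fatty acid and regulators) on 18 arrays (columns, grouped by treatment and hour). Colour is the log2 value minus the gene's mean over the 18 arrays. Most rows turn low on the 6 arrays of 72 h, and Mid1ip1 is a row that does not.

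The early mevalonate steps fell together. Mvd, the decarboxylase that makes isopentenyl diphosphate, stood at log2 9.13, 9.21 and 9.37 in DMSO at 24 h and at 5.97, 6.24 and 4.82 at 72 h. Its groups were far apart, the third 72 h array was the lowest, and the difference was -3.56 ± 0.28 (SE, 3 arrays a group, adjusted p = 3.1e-08 with limma), an 11.8-fold fall. Idi1, which isomerises that product, stood at 11.84, 11.96 and 11.84 and then at 9.91, 9.88 and 9.27, a fall of 2.19 ± 0.14. The log2 difference was -1.93 for Acat2 (acetoacetyl-CoA thiolase), -2.04 for Mvk (mevalonate kinase) and -1.40 for Fdps (farnesyl diphosphate synthase), all past the test. Pmvk, the kinase between Mvk and Mvd, fell by 0.51 ± 0.14 (adjusted p = 0.01, limma).

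Steps past squalene fell too. Tm7sf2, a sterol reductase acting after lanosterol, had the second most negative difference of all tested genes. It stood at 10.11, 10.25 and 10.25 at 24 h and at 6.56, 6.92 and 5.40 at 72 h, a fall of 3.91 ± 0.31 or 15.0-fold. Hsd17b7, the sterol ketone reductase, stood at 8.40, 8.54 and 8.65 and then at 6.24, 6.01 and 5.32, a fall of 2.67 ± 0.22. For both genes the 72 h arrays lay wholly below the 24 h arrays, with the third again lowest. Sqle, the squalene epoxidase, had a log2 difference of -1.90, Nsdhl (removal of sterol methyl groups) of -1.88 and Cyp51 (lanosterol demethylase) of -1.83. It was -1.41 for Ebp (sterol isomerase), -1.31 for Dhcr7 (a last-step reductase), -1.22 for Msmo1 (methylsterol oxidase), -1.12 for Lss (lanosterol synthase) and -0.62 for Sc5d (sterol desaturase), all past the test. Fdft1, the squalene synthase at the branch's entry, was the sterol gene that missed the threshold, with a difference of -0.40 ± 0.17 (adjusted p = 0.0744, limma).

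In the fatty acid branch the desaturase Fads2 had the largest difference in DMSO between 24 h and 72 h, from 9.29, 9.49 and 9.55 to 7.47, 7.34 and 7.26, a fall of 2.09 ± 0.20. Acss2, which makes acetyl-CoA from acetate, went from 10.32, 10.47 and 10.48 to 8.72, 8.76 and 8.54, a difference of -1.75 ± 0.15. Neither gene's groups overlapped. The log2 difference was -1.33 for Elovl6 (elongation of saturated chains), -1.09 for Acaca (acetyl-CoA carboxylase), -0.92 for Scd2 (stearoyl-CoA desaturase) and -0.88 for Fasn (fatty acid synthase). It was -0.86 for Acsl3 (long-chain acyl-CoA synthetase), -0.85 for Acly (ATP citrate lyase) and -0.76 for Fads1, a desaturase of polyunsaturated chains, and these 7 genes passed the test. Elovl5, which elongates polyunsaturated chains, differed by -0.02 ± 0.07, but its second probe set differed by -1.64 ± 0.40 and passed (adjusted p = 0.00397, limma). Gpam, the mitochondrial glycerol phosphate acyltransferase, differed by -0.66 ± 0.28 (adjusted p = 0.075, limma), but its values at both times lay between 3.71 and 4.75, close to the floor.

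Among regulators, the sterol sensor Insig1, itself an SREBP target, moved with the enzymes. It stood at 11.90, 12.06 and 11.97 at 24 h and at 10.45, 10.55 and 10.27 at 72 h, a fall of 1.55 ± 0.11. Stard4, a carrier of sterol between membranes, fell by 0.59 ± 0.14, and its second probe set gave -1.65 ± 0.18. The RNAs of the transcription factors did not pass the test, with differences of -0.32 ± 0.18 for Srebf1 and -0.26 ± 0.12 for Srebf2. Mid1ip1, which helps acetyl-CoA carboxylase form active filaments, stood at 10.46, 10.56 and 10.36 and then at 10.45, 10.40 and 10.45, a difference of -0.02 ± 0.11.

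All 27 falls from 24 h to 72 h in DMSO passed under each alternative run, but a second probe set, where a gene had one, changed some sizes. It gave -2.83 for Lss, -2.75 for Scd2, -1.25 for Nsdhl, -0.99 for Sc5d and -0.76 for Elovl6. Sc5d had a further probe set with a mean of log2 10.35, well above the filter level. Over 18 arrays it correlated at -0.35 with the Sc5d probe set of highest mean. No alternative used that further probe set, so whether the Sc5d fall holds with it was not tested.

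Marker genes moved over the same interval in the controls. Aqp1, the water channel of the proximal tubule, was higher by 5.22 at 72 h, from a mean of 3.21, below the filter level, to 8.43. Ggt1, the other proximal tubule marker that was tested, differed by -0.50 and did not pass, so the summed rise of that list given below was that of Aqp1. Krt8, Col1a1, Acta2 and Col1a2 were lower by log2 differences of -1.10, -2.29, -1.08 and -0.60. The fibroblast collagen Col3a1 was higher by 0.48, so 3 of the 4 tested fibroblast markers fell and 1 rose. The summed level of the 10 proximal tubule markers ranged over log2 5.89 to 6.14 in DMSO at 24 h and 8.59 to 8.67 at 72 h. That of the 5 epithelial markers ranged over 13.7 to 13.9 and 12.6 to 12.8, that of the 6 fibroblast markers over 14.4 to 14.6 and 14.7 to 14.8, and that of the 3 immune markers over 4.77 to 5.29 and 4.60 to 4.85. Their part in the lipid gene results was not tested.

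The earlier interval, 6 h to 24 h in DMSO, did not have that common direction. Of the 33 genes, 11 rose and 5 fell past the test (limma), where 28.3% of all tested genes rose and 30.5% fell, so the members' shares lay near or below the background. Tm7sf2 rose by 3.28 ± 0.31 from 7.23, 6.68 and 6.87 at 6 h, which placed its peak at 24 h. Acss2 rose by 1.79, Fads1 by 1.65, Fads2 by 1.64, Pmvk by 1.19, Scd2 by 0.89, Lss by 0.76, Ebp by 0.45 and Mid1ip1 by 0.39. The genes that fell were Gpam (-2.23), Idi1 (-0.94), Sqle (-0.40), Insig1 (-0.36) and Msmo1 (-0.34). Without the first DMSO array of 6 h, Sqle (-0.27), Insig1 (-0.27) and Msmo1 (-0.18) did not pass, and Msmo1 lost its call in 7 of 11 alternatives. The smaller rises of Elovl5 (0.18) and Acsl3 (0.23) completed the calls, and each was lost in 9 alternatives. Of the 16 calls, 7 passed under each alternative run: Tm7sf2, Acss2, Fads1, Fads2, Pmvk, Gpam and Idi1.

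Over the whole span from 6 h to 72 h in DMSO, 23 of 33 genes fell and 3 rose past the test (limma), where 35.6% of all tested genes fell and 31.9% rose. In the sterol branch 14 of 17 fell, led by Idi1 (-3.14 ± 0.14), Mvd (-3.13 ± 0.28), Hsd17b7 (-2.60 ± 0.22) and Sqle (-2.30 ± 0.14), then Mvk, Cyp51, Acat2 and Msmo1 at -2.19 to -1.57. Idi1 stood at 13.03, 12.64 and 12.79 on the 6 h arrays, Mvd at 9.06, 8.76 and 8.60, Hsd17b7 at 8.88, 8.16 and 8.32 and Sqle at 12.09, 11.58 and 11.81. Every one of these arrays was above the 72 h arrays of the same gene. Tm7sf2 (-0.63) and Lss (-0.36) did not pass, having peaked in between. The second Lss probe set gave 0.68 from 6 h to 24 h, without passing, and -2.83 from 24 h to 72 h, so for Lss the span depended on the probe set. The fatty acid genes that fell were Gpam (-2.88), Acaca (-1.11), Fasn (-1.03), Acly (-0.93), Elovl6 (-0.86) and Acsl3 (-0.63). Gpam stood at 6.43, 7.28 and 6.71 at 6 h and at 4.29, 3.78 and 3.71 at 72 h, near the array floor. Insig1 (-1.91), Srebf1 (-0.52) and Stard4 (-0.33, and -3.34 with its second probe set) fell, Srebf2 differed by -0.18 without passing, and the genes that rose were Fads1 (0.89), Pmvk (0.68) and Mid1ip1 (0.36). The calls of Fdft1, Sc5d, Elovl6, Srebf1, Stard4 and Mid1ip1 were lost in at least 1 alternative, and without the first DMSO array of 6 h Fdft1 was at -0.35, Sc5d at -0.24 and Stard4 at -0.18.

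**Figure D2:**
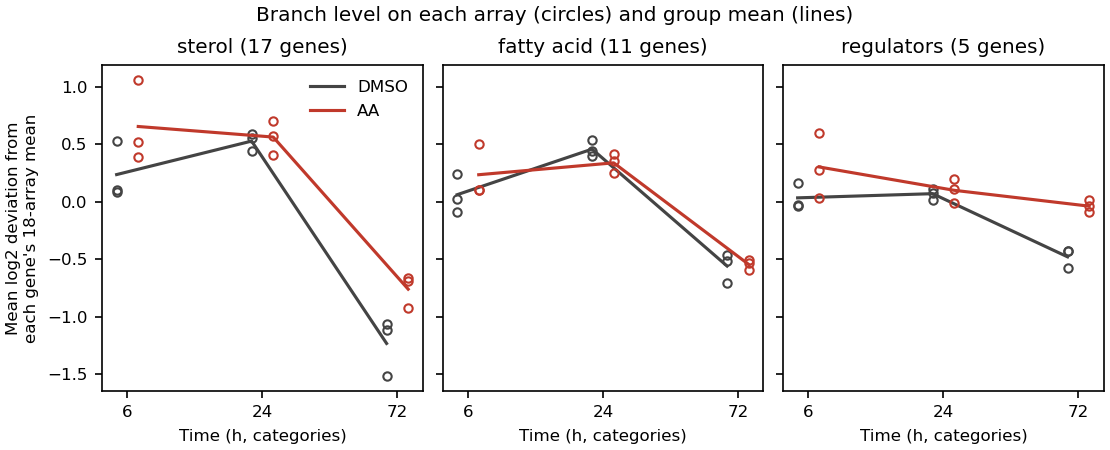
Mean log2 deviation from each gene's 18-array mean for the sterol (17 genes), fatty acid (11) and regulator (5) groups, against time as categories. Circles are single arrays and lines join group means. The sterol points at 72 h lie at -1.51 to -1.07 in DMSO and at -0.93 to -0.66 in AA, below all points of 6 h and 24 h.

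By group means, 23 of the 33 genes had their lowest of the 6 group levels in DMSO at 72 h, 14 of them sterol genes, and 5 had it in AA at 72 h. The same count was not made over all tested genes. The mean deviation of the sterol genes per array was -1.11, -1.07 and -1.51 in DMSO at 72 h and -0.93, -0.66 and -0.69 in AA at 72 h, with no overlap. The regulators showed the same order. The fatty acid genes did not, at -0.46, -0.51 and -0.70 in DMSO and -0.53, -0.59 and -0.51 in AA. These means describe genes chosen as a set and carry no test.

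At 72 h, AA-treated cells had higher RNA than DMSO controls for a part of the pathway. Of the 33 genes 15 were higher and 3 lower past the test (limma), against 27.4% and 19.8% of all tested genes. The 18 calls in either direction (54.5%) were near the background of 47.2%, while 45.5% of the members were higher. The groups did not overlap for 24 of 33 genes, against 59.6% of all genes. By branch, 9 sterol genes were higher and 1 lower, 3 fatty acid genes were higher and 2 lower, and 3 of 5 regulators were higher. The median log2 difference of the 33 genes was 0.37, and that of all tested genes 0.05.

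Mvd, Tm7sf2, Hsd17b7 and Idi1 had the largest differences of the sterol branch at 72 h. The comparison shares the DMSO arrays of 72 h with the fall in the controls, so both are given by their own values. Mvd stood at 6.89, 7.47 and 7.06 in AA against 5.97, 6.24 and 4.82 in DMSO, a difference of 1.46 ± 0.28 (2.76-fold, adjusted p = 0.000267 with limma). Tm7sf2 stood at 7.30, 7.91 and 7.61 in AA, 1.31 ± 0.31 above the controls, and at 0.87 above them without the third DMSO array of 72 h. Hsd17b7 stood at 6.76, 6.67 and 7.34, a difference of 1.07 ± 0.22, and Idi1 at 10.37, 10.40 and 10.66, a difference of 0.79 ± 0.14. In all 4 genes every AA array was above every DMSO array. A second Hsd17b7 probe set differed by 0.30 and did not pass (adjusted p = 0.404, limma). Sqle differed by 0.75, Ebp by 0.67 and Cyp51 by 0.41, while a second Cyp51 probe set gave 1.29. The calls for Fdps (0.39) and Acat2 (0.37) were lost on leaving out 3 and 2 of the 6 arrays in turn. Without the third DMSO array, Fdps was at 0.33 and Acat2 at 0.25. Pmvk went the other way, at 8.73, 9.11 and 8.95 in AA against 9.33, 9.39 and 9.20 in DMSO, a difference of -0.38 ± 0.14 that lost its call on leaving out any of 4 of the 6 arrays.

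The fatty acid branch was split at 72 h. Acaca, the carboxylase that makes malonyl-CoA, stood at 8.48, 8.58 and 8.23 in AA and at 9.14, 9.32 and 9.03 in DMSO, a difference of -0.73 ± 0.14 (adjusted p = 0.000309, limma). Fasn, which uses malonyl-CoA, stood at 10.29, 10.46 and 10.20 in AA and at 9.96, 9.80 and 9.65 in DMSO, a difference of 0.51 ± 0.15. The groups did not overlap for either gene, so adjoining steps had opposite differences. Elovl6 stood at 7.18, 6.10 and 6.88 in AA and 7.74, 7.78 and 7.15 in DMSO. Its difference of -0.84 ± 0.27 was -0.52 (adjusted p = 0.12, limma) without the second AA array. The call was also lost without the first (-0.74) or the second (-0.72) DMSO array, and the groups overlapped slightly. Scd2 stood at 12.62, 12.68 and 12.65 in AA and 12.33, 12.45 and 12.18 in DMSO, a difference of 0.33 ± 0.12, but its second probe set gave -0.52 without passing. Acly differed by 0.26 (adjusted p = 0.0453, limma). The calls of both were lost in 7 alternatives, which for Scd2 included leaving out any of 4 of the 6 arrays (0.26 without the third DMSO array) and for Acly any of 5 (0.22 without the second AA array). The differences of Fads1, Fads2, Acss2, Acsl3, Elovl5 and Gpam, from -0.15 to 0.37, did not pass.

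Of the regulators, Mid1ip1 had the clearest difference at 72 h. It stood at 11.21, 11.33 and 11.31 in AA and at 10.45, 10.40 and 10.45 in DMSO, a difference of 0.85 ± 0.11 (adjusted p = 5.4e-06, limma). Srebf2 stood at 9.57, 9.53 and 9.53 in AA and 9.15, 9.16 and 9.11 in DMSO, a difference of 0.41 ± 0.12. Insig1 stood at 10.76, 10.96 and 10.93 in AA and was 0.46 ± 0.11 above its controls. All 3 genes had no overlap between groups. Srebf1 stood at 7.45, 7.67 and 7.38 in AA and 7.18, 7.11 and 6.92 in DMSO, a difference of 0.43 ± 0.18 that did not pass (adjusted p = 0.059, limma). Stard4 stood at 9.01, 9.05 and 9.10 in AA and 9.06, 9.10 and 8.83 in DMSO, a difference of 0.06 ± 0.14.

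**Figure D3:**
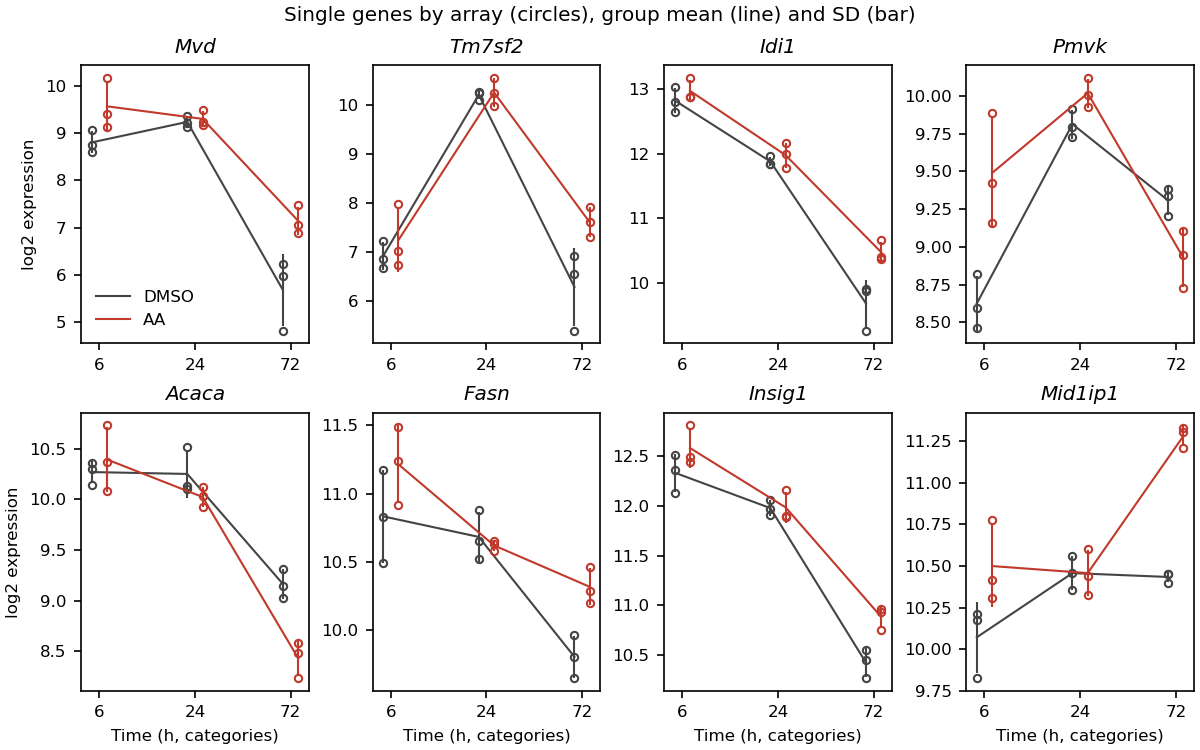
Log2 expression of single genes against time as categories, with circles for arrays, lines through group means and bars for the SD of 3 arrays, in AA and in DMSO. At 72 h Mvd lies at 6.89 to 7.47 in AA and 4.82 to 6.24 in DMSO, while Acaca lies at 8.23 to 8.58 in AA and 9.03 to 9.32 in DMSO.

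Markers differed between the arms at 72 h as well. Aqp1 differed by -2.33, Krt8 by 0.55, Acta2 by 0.74, Col3a1 by -0.32 and the macrophage-associated lysosomal gene Cd68 by 1.90, all past the test (limma). The summed levels at 72 h in AA ranged over 6.84 to 6.92 for the proximal tubule markers, 13.2 to 13.4 for the epithelial markers, 14.4 to 14.6 for the fibroblast markers and 5.57 to 5.87 for the immune markers, with Ptprc and Cd3e, the defining leukocyte markers, below the filter. Whether these genes bear on the lipid genes was not tested.

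AA-treated cells had the late fall too, but a smaller one for several genes. From 24 h to 72 h in AA 26 of 33 genes fell and 1 rose past the test (limma), where 22.8% of all tested genes fell and 30.0% rose. The median log2 difference was -1.22 in the sterol branch and -0.59 in the fatty acid branch. With the probe set of highest mean, the largest differences were those of Tm7sf2 (-2.64), Mvk (-2.43), Mvd (-2.16), Elovl6 (-2.12), Hsd17b7 (-1.79), Acaca (-1.60), Acat2 (-1.59) and Acss2 (-1.56). That order depended on the probe set. A second one gave larger falls for Scd2 (-2.88), Lss (-2.72) and Stard4 (-2.12), and a smaller one for Cyp51 (-0.56 against -1.36). Insig1 (-1.10) and Stard4 (-0.50) fell, and Mid1ip1 was the gene that rose, by 0.83. Fdft1, Fasn, Gpam, Elovl5, Srebf1 and Srebf2 did not pass.

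The difference between the arms in this late change was tested directly, as the treatment effect at 72 h minus that at 24 h. It passed for 10 of 33 genes (30.3%), near the 32.4% of all tested genes, and 9 were positive and 1 negative against 18.7% and 13.7% (limma). The positive genes were Mvd (1.40 ± 0.40), Tm7sf2 (1.27 ± 0.44), Hsd17b7 (0.88 ± 0.31), Idi1 (0.69 ± 0.21), Sqle (0.66 ± 0.20) and Cyp51 (0.47 ± 0.16) of the sterol branch, Fasn (0.58 ± 0.21) of the fatty acid branch, and Insig1 (0.45 ± 0.16) and Mid1ip1 (0.85 ± 0.16). Pmvk was negative at -0.59 ± 0.20, with a difference of -1.09 in AA and -0.51 in DMSO. The count dropped to 4 without the third DMSO array of 72 h, and likewise without the first or the second AA array of 24 h. It was 5 without the third AA array of 72 h and 6 without the second or the third DMSO array of 24 h. Mvd, Idi1 and Mid1ip1 passed under each alternative run, and the other 7 genes did not, with Fasn losing its call in 12 of 18 and Tm7sf2 (0.82 without the third DMSO array of 72 h) in 9 of 17.

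**Figure D4:**
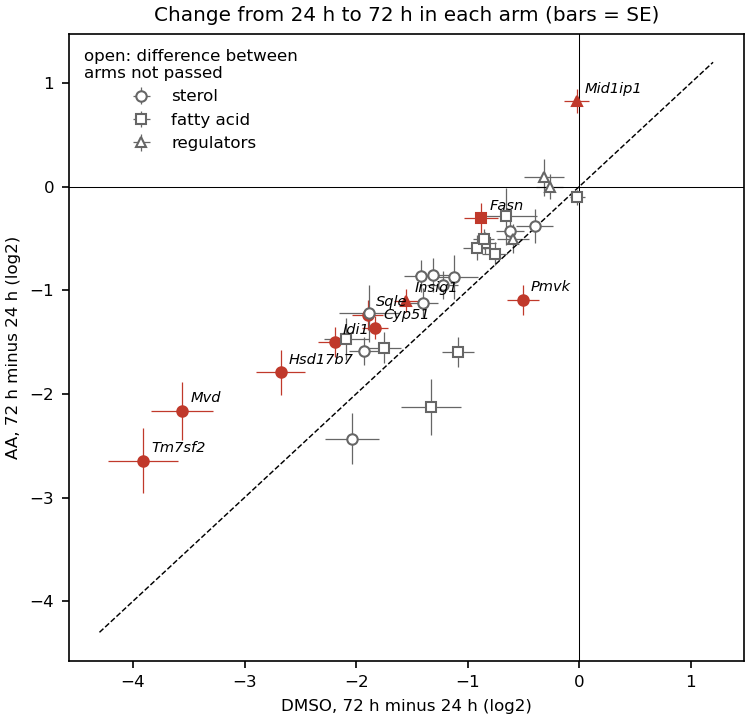
Log2 change from 24 h to 72 h in DMSO (horizontal) and in AA (vertical) for the 33 genes, with bars for the SE and filled red symbols where the difference between arms passed the test. Mvd lies at -3.56 and -2.16 and Tm7sf2 at -3.91 and -2.64, while Mid1ip1 lies at -0.02 and 0.83.

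From 6 h to 72 h in AA, 25 of 33 genes fell and 2 rose past the test (limma), against 33.4% and 37.0% of all tested genes. With the probe set of highest mean, Mvk (-2.85), Idi1 (-2.49), Mvd (-2.43) and Elovl6 (-2.29) had the largest differences. A second probe set gave -4.60 for Elovl5 (against -0.16) and -3.26 for Hsd17b7 (against -2.09). It gave smaller falls for Cyp51 (-1.21 against -1.89) and for Fasn (-0.29 against -0.90), which then did not pass. Fads1 (0.52) and Mid1ip1 (0.78) rose. From 6 h to 24 h in AA, 10 fell and 7 rose, against 27.5% and 25.0% of all tested genes. Tm7sf2 rose from 7.02, 6.73 and 7.98 to 9.97, 10.23 and 10.55, Acss2 rose by 1.44 and Fads1 by 1.17, as they had in DMSO, and Gpam fell by 1.59.

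At 6 h the comparison of AA with DMSO gave a count that depended on single arrays. Of the 33 genes 9 were higher and 2 lower past the test (limma), where 12.1% of all tested genes were higher and 12.4% lower. In all, 5 of the 17 sterol genes were higher, 3 of 11 fatty acid genes were higher and 2 lower, and 1 of 5 regulators was higher. The median was 0.34, or 0.18 without the third AA array, and 30 of 33 genes lay above 0. The groups did not overlap for 8 of 33 genes (24.2%), against 36.4% of all genes. The count was 3 without the third AA array, 5 without the second DMSO array, 7 without the third DMSO array and 20 without the first DMSO array or the first AA array. It was 1 in a fit of the 6 h arrays alone, and 21 with each array centred on its median. Centring also changed the split of all genes, from 1091 higher of 2211 called to 1654 of 2297.

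Among the markers at 6 h, Krt8 was 0.50 and Ggt1 1.27 higher in AA past the test, and the 4 tested fibroblast markers and Aqp1 and Cd68 did not pass. The summed levels in AA and in DMSO ranged over 7.18 to 8.03 and 6.55 to 6.77 for the proximal tubule, 14.0 to 14.3 and 13.5 to 13.7 for the epithelial, 14.4 to 14.7 and 14.7 to 14.8 for the fibroblast and 4.65 to 4.87 and 4.57 to 5.06 for the immune markers. Their part in the lipid gene results was not tested.

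Pmvk passed the test at 6 h under each alternative run. It stood at 9.16, 9.42 and 9.89 in AA and at 8.82, 8.59 and 8.46 in DMSO, every AA array above every control, a difference of 0.87 ± 0.14 (adjusted p = 0.000682, limma). Pmvk thus stood higher in AA at 6 h and lower at 72 h, and the treatment effect at 72 h minus that at 6 h was -1.25 ± 0.20 (adjusted p = 8.6e-05, limma). Lss stood at 8.68, 8.78 and 9.70 in AA and 8.79, 8.10 and 8.24 in DMSO, a difference of 0.68. Fdft1 stood at 10.30, 10.39 and 11.08 against 10.33, 9.81 and 9.86, a difference of 0.59, and Fdps at 12.63, 12.66 and 13.30 against 12.57, 12.14 and 12.15, a difference of 0.57. In Lss and Fdft1 the first DMSO array was within the AA range, and in all 3 genes the third AA array was the highest. Ebp differed by 0.46. Without the third AA array Lss was at 0.36, Fdft1 at 0.34, Fdps at 0.36 and Ebp at 0.25, none past the test. Mvd differed by 0.77 and just missed it (adjusted p = 0.053, limma).

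In the fatty acid branch at 6 h, Gpam was lower in AA, at 6.50, 5.18 and 5.62 against 6.43, 7.28 and 6.71 in DMSO, a difference of -1.04 ± 0.28. The first AA array lay above the first DMSO array, so the groups overlapped. The call was lost without the third AA array (-0.97, adjusted p = 0.0571, limma), without the second AA array (-0.75) and without the second DMSO array (-0.80). Acsl3 was lower by a log2 difference of -0.38 without overlap. Fads2 stood at 8.09, 8.29 and 9.13 in AA and 8.10, 7.52 and 7.79 in DMSO, a difference of 0.70, which was 0.38 without the third AA array and then did not pass. Scd2 stood at 12.74, 12.69 and 13.17 against 12.65, 12.28 and 12.10, a difference of 0.52 with no overlap. Fads1 stood at 9.56, 9.55 and 9.95 against 9.52, 9.20 and 9.07, a difference of 0.43 with little room between the groups. Fads1 did not pass without the third AA array (0.30) or without the third DMSO array (0.33).

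Of the regulators, only Mid1ip1 passed the test at 6 h. It stood at 10.31, 10.42 and 10.78 in AA and 10.18, 9.82 and 10.21 in DMSO, a difference of 0.43 ± 0.11, which was 0.29 without the third AA array and did not pass then. Insig1 stood at 12.44, 12.49 and 12.81 against 12.51, 12.13 and 12.36, a difference of 0.25. Srebf1 stood at 7.13, 7.83 and 8.14 against 7.60, 7.71 and 7.45, a difference of 0.11. The other two, Srebf2 (0.23) and Stard4 (0.32), did not pass either, and the groups of Insig1 and Srebf1 overlapped.

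At 24 h no lipid gene differed past the test. The count was 0 of 33 (limma), also 0 at an unadjusted p under 0.05, against 2.09% of all tested genes called and 11.2% at that unadjusted level. The differences ran from -0.40 for Gpam to 0.21 for Pmvk, with a median of -0.01. All 11 fatty acid genes were below 0, and 11 of 17 sterol genes were above it, where the median of all tested genes was -0.009. Some of these lay very near 0, as Scd2 had a mean of 13.24 in both AA and DMSO. Insig1 stood at 11.90, 11.89 and 12.16 in AA and 11.90, 12.06 and 11.97 in DMSO, a difference of 0.01 ± 0.11. Srebf1 and Srebf2 differed by 0.02 and 0.14, Stard4 by -0.03 and Mid1ip1 by 0.00. The treatment effect at 24 h minus that at 6 h passed for 0 of 33 genes (limma), against 2.43% of all genes, with 9 negative and 0 positive at an unadjusted p under 0.05.

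**Figure D5:**
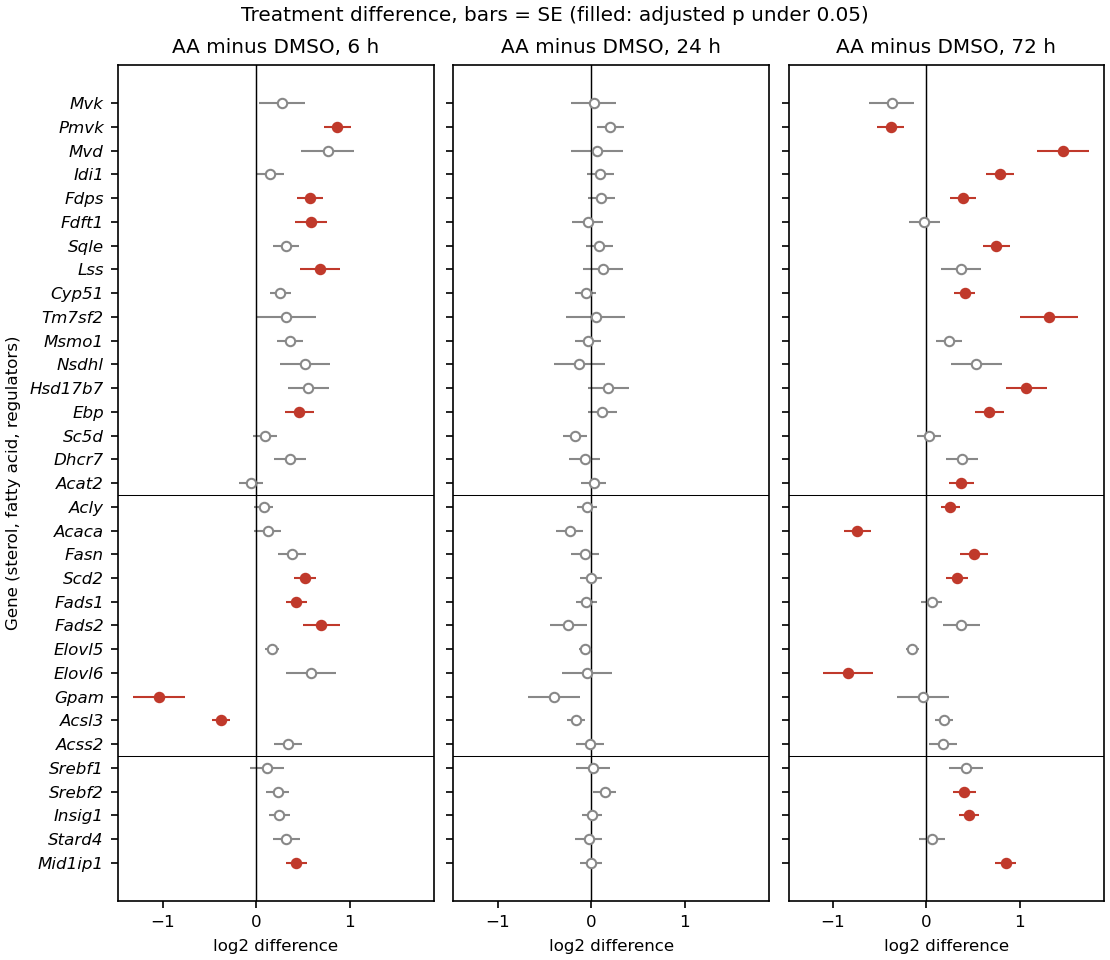
Log2 difference AA minus DMSO for the 33 genes at 6, 24 and 72 h, with bars for the SE and filled symbols where the adjusted p was under 0.05. Filled symbols number 11 at 6 h, 0 at 24 h and 18 at 72 h, where Mvd (1.46) is farthest to the right and Elovl6 (-0.84) farthest to the left.

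The effect at 72 h minus that at 6 h passed for 9 of 33 genes (27.3%), below the 41.2% of all tested genes (limma). Besides Pmvk, it was negative for Elovl6 (-1.42), Acaca (-0.86), Fdft1 (-0.61) and Elovl5 (-0.32), and positive for Gpam (1.01), Idi1 (0.64), Acsl3 (0.57) and Mid1ip1 (0.42). The calls of Fdft1, Gpam and Mid1ip1 were weak, being lost in 11 of 18, 12 of 17 and 13 of 17 alternatives, and Fdft1 was at -0.36 without the third AA array of 6 h. Idi1 was lost in 3 of 18, and was at 0.43 without the third DMSO array of 72 h. Second probe sets gave larger sizes for Elovl5 (-2.80), Fdft1 (-1.41) and Idi1 (0.98). Apart from Pmvk, Fdft1 and Idi1 these were fatty acid genes and Mid1ip1, a regulator of fatty acid synthesis.

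The members varied together over the 18 arrays, which share 6 groups, the time course and the normalization, so the following are descriptions. The median Pearson r over 136 pairs of sterol genes was 0.85, and 0.75 after each group's mean was removed. The shared deviation showed on single arrays, of which the first DMSO array of 6 h was the highest of its group for 28 of 33 genes, and the third DMSO array of 72 h the lowest of its group for 31. Neither count was made over all tested genes. Insig1 had a median r of 0.94 with the sterol genes and Acly 0.94. Pmvk had 0.39, Fads1 0.02 and Mid1ip1 -0.32, yet within groups these genes had 0.78, 0.79 and 0.54. Gpam was the gene with a negative value within groups, at -0.39 against 0.53 overall.

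Genes around the pathway were read from a further list of 36, of which 33 were on the array and 27 passed the filter. At 72 h 13 were higher in AA and 4 lower (limma), with a median difference of 0.33, where 27.4% of all tested genes were higher and 19.8% lower. Me1, the malic enzyme that supplies NADPH, was 1.70 higher, the sterol exporter Abca1 1.14, the NADPH-forming Idh1 0.99 and the acyl-CoA synthetase Acsl5 0.96. Abca1 was weak, with means of 4.23 in DMSO and 5.36 in AA. The 4 lower were Osbpl3 (-0.78), Nr1h2 (-0.53), Mbtps1 (-0.36) and Insig2 (-0.26). Of 5 tested genes of sterol export, storage and traffic, 3 were higher and 2 lower. Of 13 tested genes of fatty acid supply and esterification, 6 were higher with 0 lower. Me1 had fallen by 1.14 in the controls from 24 h to 72 h, together with the phosphatidate phosphatase Lpin1 (-1.04) and the citrate carrier Slc25a1 (-0.86). Over that interval 8 of the 27 fell and 3 rose, with a median of -0.18, against 17.1% and 17.2% of all tested genes. The 3 that rose were Osbpl3 (0.47), Fntb (0.33) and Insig2 (0.32). Insig2, the relative of Insig1, ran opposite to Insig1 in part: it was 0.32 higher in DMSO at 72 h than at 24 h, 0.71 higher than at 6 h, and differed by -0.26 between AA and DMSO at 72 h. At 6 h it was 0.32 higher in AA past the test, the direction of Insig1, which did not pass. In AA from 24 h to 72 h Insig2 differed by -0.007. Scap, the escort of SREBPs, did not pass in any of these comparisons, and the SREBP protease gene Mbtps1 differed by -0.36 and Mbtps2 by 0.33 at 72 h.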

How the data were processed

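Total RNA from NRK-52E cells was labelled and hybridised to Affymetrix rat arrays, 3 arrays in each of 6 groups, per the labels' protocols. The authors deposited a log2 table of 31099 probe sets (57 controls) by 18 arrays, and the submitters' processing notes name GCRMA. The version and settings of GCRMA, and any genome build, are not stated in the sources read here. GCRMA compresses weak signals towards a floor near log2 2, so differences of values below log2 4 are uncertain, and the number of arrays limits the precision.

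Probe sets with 1 gene symbol (20826) were named through the platform annotation and a RefSeq table of GRCr8, and the probe set with the highest mean stood for each of 14217 genes. The 9015 genes that reached log2 4 on 3 arrays were fitted with 6 group means in limma 3.58.1 (R 4.3.3), with an intensity trend and Benjamini-Hochberg adjustment, and adjusted p under 0.05 passed. The fit had 12 residual and 7.27 prior degrees of freedom, and the median SD between replicates was 0.111. The labels call the arrays biological replicates and speak of 3 studies at each time, without saying whether cultures were separate. The p-values therefore cover only the spread among the arrays, and how far the cultures were independent is not given. Same-numbered AA and DMSO samples did not deviate together (r from -0.16 to 0.16 over 9 pairs), so the numbers were not used as pairs. The labels give no batch.

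The members and lists were chosen with earlier results of these data known. Named were the members past the test, largest difference first and up to 8 a branch, with array values for up to 4, and the regulators always. The promoters, the array values of the fall from 24 h to 72 h and the genes named in the AA time course were picked after their values were seen. Alternatives were array centring, no low-value filter, no trend, a second probe set, a replicate block, only the arrays compared, and each array left out. The script was tested on simulated data. Probes shared between near-identical genes were not checked, which bears on Scd2, Fasn, Cyp51 and Stard4.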

Additional observations from a re-analysis of the deposited data

Results flagged for a closer look

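The results listed here were singled out because the difference between AA and DMSO changed between times, by a direct test of that change (limma, adjusted p under 0.05 over all tested genes). As the treatment effect at 72 h minus that at 24 h, on the log2 scale with its SE, these were Pmvk (-0.59 ± 0.20), Mvd (1.40 ± 0.40), Idi1 (0.69 ± 0.21), Sqle (0.66 ± 0.20), Cyp51 (0.47 ± 0.16), Tm7sf2 (1.27 ± 0.44), Hsd17b7 (0.88 ± 0.31), Fasn (0.58 ± 0.21), Insig1 (0.45 ± 0.16) and Mid1ip1 (0.85 ± 0.16). As the treatment effect at 72 h minus that at 6 h, they were Pmvk (-1.25 ± 0.20), Idi1 (0.64 ± 0.21), Fdft1 (-0.61 ± 0.24), Acaca (-0.86 ± 0.20), Elovl5 (-0.32 ± 0.10), Elovl6 (-1.42 ± 0.38), Gpam (1.01 ± 0.39), Acsl3 (0.57 ± 0.14) and Mid1ip1 (0.42 ± 0.16). Pmvk, Idi1 and Mid1ip1 were in both. Such changes passed for 32.4% of all tested genes in the first comparison and 41.2% in the second, and both share the arrays of 72 h. Of these, Mvd, Idi1 and Mid1ip1 at 72 h minus 24 h, and Pmvk, Acaca, Elovl5, Elovl6 and Acsl3 at 72 h minus 6 h, passed under each alternative run, and the others lost their call in at least 1. Fdft1, Gpam and Mid1ip1 at 72 h minus 6 h lost it in 11 of 18, 12 of 17 and 13 of 17 alternatives. The size at 72 h minus 6 h also depended on the probe set, as second probe sets gave -2.80 for Elovl5, -1.41 for Fdft1 and 0.98 for Idi1.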

How the results depend on the processing

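With each array left out in turn, the number of the 33 genes past the test ranged over 3 to 20 for AA against DMSO at 6 h, 0 to 0 at 24 h and 13 to 18 at 72 h. For the change of the treatment effect it was 0 to 3 from 6 h to 24 h, 4 to 11 from 24 h to 72 h and 5 to 12 from 6 h to 72 h. In DMSO it was 11 to 16, 27 to 28 and 23 to 26 for 6 h to 24 h, 24 h to 72 h and 6 h to 72 h, and in AA 15 to 19, 26 to 27 and 26 to 28. The 6 h comparison had the widest range of these. At 6 h the count was 21 with arrays centred on their medians and 1 with only the arrays compared. That last setting gave 23 against 18 at 72 h, and 30 against 27 for the fall in DMSO from 24 h to 72 h. The main fit takes 1 spread per gene from all 18 arrays, while replicate SDs differed between groups. That of Lss was 0.57 in AA at 6 h and 0.12 in AA at 72 h. Why the counts moved was not tested. From 24 h to 72 h the change of the treatment effect passed for 4 genes without the filter, 6 without the trend and 17 with only the arrays compared, and the cause was not tested. Among the alternatives run, a direction called with either probe set reversed only with a second probe set: Scd2 at 72 h (-0.52) and in AA from 6 h to 24 h (-0.73), Srebf1 in the effect at 72 h minus 6 h (-0.77), Elovl5 in DMSO from 6 h to 24 h (-0.16) and to 72 h (-1.80), Stard4 in DMSO from 6 h to 24 h (-1.69) and Elovl6 in DMSO from 6 h to 72 h (0.00535), and the cause was not tested. With the replicate number as a block, although it paired no samples, the counts stayed at 11, 0 and 18 at 6, 24 and 72 h and at 27 for the fall in DMSO. It moved the change of the effect from 24 h to 72 h to 9 (Fasn lost) and from 6 h to 72 h to 8 (Fdft1 lost), DMSO from 6 h to 24 h to 15 (Acsl3 lost) and AA from 6 h to 72 h to 26 (Elovl5 lost), while DMSO from 6 h to 72 h stayed at 26 with Stard4 lost and Fads2 gained. Over all genes, 702 passed at 6 h with only those arrays against 2211, 112 at 24 h without the filter against 188, and 78 to 138 against 219 for the effect at 24 h minus 6 h under 4 settings. Gpam, at or below log2 4.75 from 24 h on, is limited by signal over background.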
